A study of Mus musculus with 14 samples.

Results

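The Tribbles genes Trib1, Trib2 and Trib3 were followed in mouse erythroid progenitors with and without erythropoietin (EPO), the cytokine on which these cells depend. They are 3 of 18193 genes that a probe set of the Affymetrix whole-genome mouse array names alone, and were taken as every probe set annotated to 1 of them and to no other gene. This gave 7 probe sets, 2 for Trib3, 3 for Trib2 and 2 for Trib1, and no probe set named a Tribbles gene together with another gene. All 7 were tested, since no filter on low values was applied.

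The cells came from bone marrow of wild-type C57Bl/6 female mice aged 8 to 12 weeks and were expanded in SP34ex medium, which per the study's methods holds EPO, stem cell factor, dexamethasone and estradiol. Stage E2 cells, proerythroblasts, were isolated at day 3.5 by depletion of lineage-positive and Kit+ cells and selection for CD71, and stage E1 cells, which resemble CFU-e colony-forming progenitors, at day 3 by lineage depletion and selection for Kit and CD71 (days per the labels). Both were then held for 5.5 h without hematopoietic cytokines, with insulin and transferrin present per the methods, and kept for a further 90 min with EPO at 4 U/mL or without it. Arrays were made from 3 EPO-challenged and 3 unchallenged cultures of stage E2 and from 4 EPO-challenged and 4 unchallenged cultures of stage E1, described as biological replicates, 14 in all. All 4 groups had therefore met EPO in the expansion culture before the cytokine-free interval. The study's methods instead give day 3.5 for both stages. By the labels' days, stage and day of isolation cannot be told apart. Stage and any batch of arrays, for which no label was given, cannot be told apart either.

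Tribbles proteins are pseudokinases: they keep the fold of a protein kinase but have little or no catalytic activity, and act as scaffolds. Their C-terminal tail recruits the ubiquitin ligase COP1, through which Trib1 and Trib2 promote degradation of the myeloid transcription factor C/EBPα, and both can drive acute myeloid leukemia in mice. Trib3 is best known as a stress gene that the transcription factors ATF4 and CHOP switch on when translation is restrained or amino acids are short. Trib3 protein can bind and restrain AKT kinase and dampens ATF4 and CHOP activity in turn.

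The deposited values are log2 GC-RMA values from which a constant had been subtracted for each probe set, so differences between arrays can be read but levels cannot, and no probe set's value is set against another's. A value near 0 means only that an array lay near that constant. Unless stated otherwise, a change is the difference of group means with its standard error, tested with limma's two-sided moderated test and Benjamini-Hochberg adjustment over 45037 probe sets, and passed when the adjusted p was under 0.05.

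Trib3 lies on chromosome 2 (152337425 to 152344060, GRCm38.p6) and Trib2 on chromosome 12 (15791725 to 15816962), both on the minus strand, and Trib1 lies on chromosome 15 (59648654 to 59657099). Promoter windows of 250 bases before to 50 after the start site were at hand for 2 of the 3 genes, Trib3 and Trib2, from RefSeq on GRCm38.p6. The Trib3 window, chr2:152344011-152344310 on the minus strand, is shown because some ATF4 target genes rose with EPO like Trib3 in the results that follow. Of 22 measured genes of that pathway, 5 passed as higher in stage E1 and 17 did not pass. Of all probe sets 0.804% passed as higher there. The 2 shares are not like for like, since each gene was counted by its most variable probe set. Capitals in the window mark the only match to TGATGNAA, the core of the C/EBP-ATF response element that ATF4 binds, here read from the opposite strand.
Trib3 promoter: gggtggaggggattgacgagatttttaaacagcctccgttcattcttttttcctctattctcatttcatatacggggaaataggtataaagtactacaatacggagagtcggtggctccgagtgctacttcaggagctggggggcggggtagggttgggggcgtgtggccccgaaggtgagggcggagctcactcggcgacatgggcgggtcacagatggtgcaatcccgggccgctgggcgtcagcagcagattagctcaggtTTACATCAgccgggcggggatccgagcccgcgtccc
The match lies 15 to 22 bases after the start site, within the transcribed part. Neither TTCNNNGAA, the palindrome bound by the EPO-activated factor STAT5, nor TGTTTAC, a site of FOXO factors, occurred in it on either strand. The Trib2 window (chr12:15816736-15817035, minus strand) held none of the 3 motifs. Of 32851 promoter windows of this length, 3.97% held TGATGNAA, 8.3% held TTCNNNGAA and 3.65% held TGTTTAC on 1 strand or the other. These are matches of letters, not measured binding.

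Trib3 was higher with EPO in both stages, and far more so in stage E1. On probe set 1426065_a_at the stage E1 arrays read -2.55, -2.89, -2.93 and -3.15 with EPO, against -7.67, -7.35, -6.68 and -6.77 without EPO. The nearest arrays of the 2 groups stood 3.53 log2 units apart. Trib3 rose by 4.24 ± 0.25 (SE, n = 4 against 4, an 18.9-fold difference, limma adjusted p = 0.00159). The 7th highest change of all 45037 probe sets in stage E1 was this one. Probe set 1456225_x_at, some of whose probes can match other sequences, read -1.33, -2.30, -2.16 and -2.44 in EPO-challenged E1 cells and -6.10, -5.81, -5.56 and -5.50 in unchallenged E1 cells. Its change was 3.69 ± 0.27 (SE, 12.9-fold, limma adjusted p = 0.00333), also without overlap. Both Trib3 probe sets passed as higher, where 0.804% of all probe sets did, and 3.28% of all probe sets were higher without overlap. Same-numbered E1 arrays deviated together, and with a replicate block in the fit the changes were the same size and the limma adjusted p-values were 0.066 and 0.0823, no longer past the threshold.

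In stage E2, Trib3 on 1426065_a_at read 0.83, 0.88 and 0.82 with EPO, against -0.28, -0.001 and 0.001 without EPO. The EPO-challenged arrays lay within 0.1 of each other and above all 3 unchallenged arrays. The rise was 0.94 ± 0.09 (SE, n = 3 against 3, 1.91-fold, limma adjusted p = 0.0116). On 1456225_x_at the E2 arrays read 0.77, 0.91 and 0.75 with EPO and 0.05, -0.18 and -0.05 without EPO, a rise of 0.87 ± 0.08 (1.83-fold, limma adjusted p = 0.0109). In stage E2, 2.54% of all probe sets passed as higher and 9.42% were higher without overlap. Leaving out EPO-challenged replicate 1 gave an adjusted p of 0.0504 for 1426065_a_at, and the joint fit of 14 arrays, in which both stages share 1 spread, gave 0.0837 and 0.14. The median SD between replicates was 0.03 in both E2 groups (0.0343 with EPO, 0.0317 without), against 0.0729 with EPO and 0.0934 without EPO in stage E1.

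The difference between the stages in the Trib3 response was tested directly. The EPO change in stage E2 minus that in stage E1 was -3.30 ± 0.31 on 1426065_a_at (SE, 14 arrays, limma adjusted p = 0.00111) and -2.81 ± 0.33 on 1456225_x_at (limma adjusted p = 0.00476). The first was the lowest interaction value of all 45037 probe sets and the second the 8th lowest. As lower, 0.235% of all probe sets passed. After quantile normalization over the 14 arrays the differences were -1.43 (limma adjusted p = 0.00868) and -1.27 (limma adjusted p = 0.0483), with the same direction. That step gives all arrays 1 distribution, while array SDs were 0.633 to 0.736 in stage E1 and 0.259 to 0.295 in stage E2. It therefore alters the size of changes differently in the stages.

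For scale, 3 well known EPO response genes changed in the same arrays. Cish, a feedback inhibitor of cytokine receptors, rose by 4.02 ± 0.07 in stage E2 and by 5.35 ± 0.15 in stage E1. Socs2, of the same family, rose by 3.97 ± 0.18 in stage E2 and by 3.84 ± 0.31 in stage E1. Pim1, a survival kinase, rose by 0.95 ± 0.06 in stage E2 and by 3.23 ± 0.27 in stage E1. These are values of each gene's most variable probe set. Of the 6 Socs2 probe sets, 3 passed in stage E2 and 2 in stage E1, and of the 2 for Pim1, 1 passed in each stage. With the replicate block in stage E1 Cish still passed (limma adjusted p = 0.0206), and Socs2 (0.0681) and Pim1 (0.0988) did not. The Trib3 change of stage E1 lay between those of Cish and Socs2 on 1426065_a_at (4.24) and between those of Socs2 and Pim1 on 1456225_x_at (3.69), while that of stage E2 was near that of Pim1.

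Trib2 went the other way, on 1 of its 3 probe sets. On 1426640_s_at, which detects several transcripts, the E2 arrays read -0.55, -0.60 and -0.64 with EPO, against 0.15, -0.01 and 0.01 without EPO. All EPO-challenged arrays were below all unchallenged ones. Trib2 fell by 0.65 on the log2 scale (SE 0.05, 1.57-fold lower, limma adjusted p = 0.00765), where 2.08% of all probe sets passed as lower and 13.7% were lower without overlap. The joint fit gave an adjusted p of 0.245 for the same change.

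In stage E1 the same Trib2 probe set read 1.99, 3.12, 2.65 and 2.62 with EPO, against 4.00, 3.92, 4.28 and 3.85 without EPO. The groups did not overlap, as was the case in the lower direction for 2.3% of all probe sets. The difference was -1.42 ± 0.24 (SE, 2.67-fold lower) with a limma adjusted p of 0.0507, just short of passing, where 0.36% of all probe sets passed as lower. Of 9 alternatives, 5 passed and 4 did not. It passed after quantile normalization (limma adjusted p = 0.0347), with array weights (0.00921), among the 22518 more variable probe sets (0.0147) and in the joint fit (0.00156). It did not pass with the replicate block (0.188). Without EPO-challenged replicate 1, the lowest array of that group, it was -1.22 (adjusted p = 0.0391), and without replicate 2, the highest, -1.59 (adjusted p = 0.0347). Of the 8 fits that left out 1 array, only these 2 passed, and 6 did not (limma adjusted p up to 0.153). The EPO change in stage E2 minus that in stage E1 was 0.77 ± 0.29 (limma adjusted p = 0.506), so no direction could be given for a difference between the stages. After quantile normalization, which alters changes differently in the stages as given above, it was -0.27 (limma adjusted p = 0.707).

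The other Trib2 probe sets did not follow 1426640_s_at. Across the 14 arrays they correlated with it at r = 0.482 (1426641_at) and r = 0.639 (1459852_x_at). On 1426641_at the E1 arrays read -0.004, -0.03, 0.88 and -0.02 with EPO and 0.04, 1.64, 0.41 and -0.015 without EPO. Most arrays thus stood at 0 while 1 EPO-challenged and 2 unchallenged arrays stood higher, and the groups overlapped. Its changes were -0.03 ± 0.01 in stage E2 (limma adjusted p = 0.415) and -0.31 ± 0.42 in stage E1 (limma adjusted p = 1). Probe set 1459852_x_at stayed between -0.11 and 0.19 over all 14 arrays, with changes of -0.02 in both stages.

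Trib1 was nearly constant. Its probe set 1424880_at spanned -0.02 to 0.02 over the 14 arrays and 1424881_at -0.07 to 0.06, with SDs of 0.0103 and 0.0437 against a median of 0.137 over all probe sets. The EPO changes of 1424881_at were -0.02 ± 0.02 in stage E2 (95% interval -0.0631 to 0.0293) and 0.00 in stage E1 (-0.0614 to 0.0613). Those of 1424880_at lay within -0.0317 and 0.0291 in both stages by the same intervals. With the subtracted constant unknown, a constant value does not tell an absent transcript from one at a steady level. Shifts of whole arrays were of similar size to the Trib1 values. The median over all probe sets was 0.031 in unchallenged E1 replicate 1 and -0.023 to -0.0097 in the E2 arrays. There 1424880_at read 0.021 and -0.017 to -0.007. The part of such shifts in the Trib1 values was not tested. By contrast the SDs were 3.25 and 2.66 for the Trib3 probe sets and 1.95 for Trib2 1426640_s_at, at or above the 99.6th percentile of all probe sets.

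**Figure D1:**
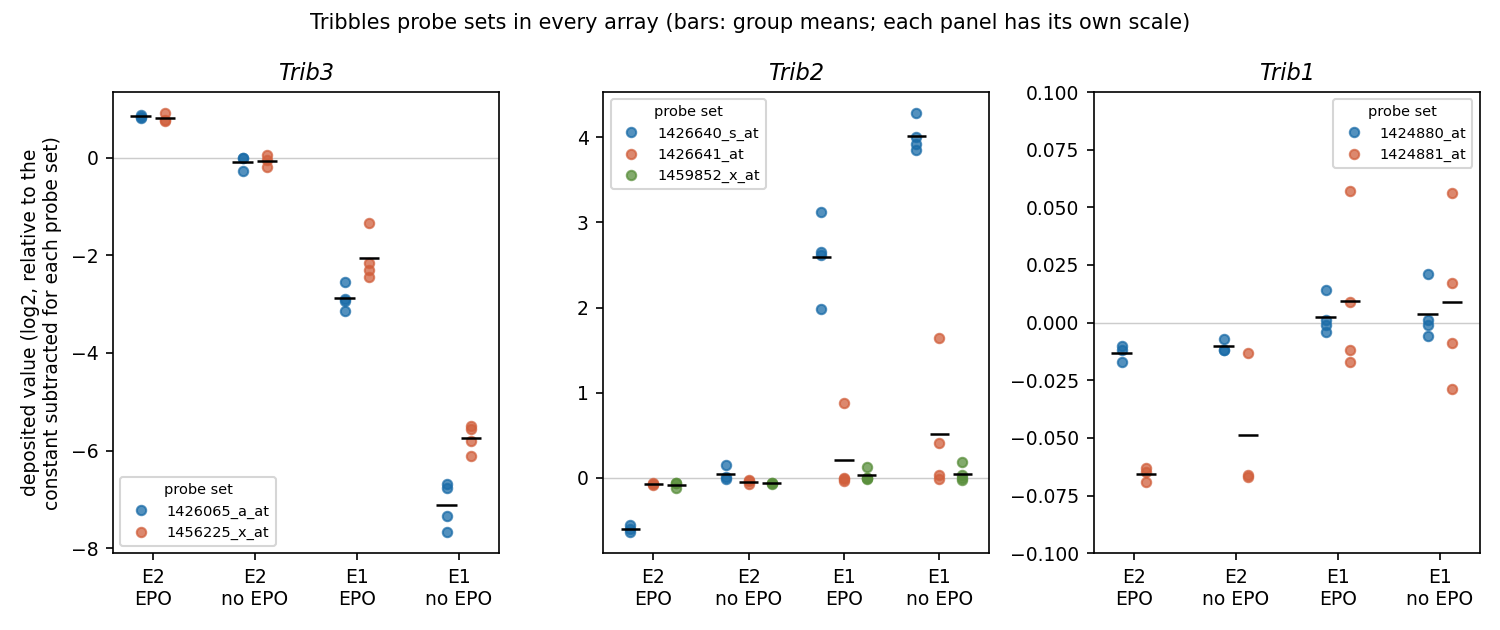
Deposited log2 values (relative to the constant subtracted for each probe set) of the 7 Tribbles probe sets, 1 point per array, with a bar at each group mean, in E2 with EPO, E2 without EPO, E1 with EPO and E1 without EPO. Both Trib3 probe sets step down over these 4 groups, Trib2 1426640_s_at steps up, and Trib1, on a scale of its own, stays between -0.07 and 0.06.

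**Figure D2:**
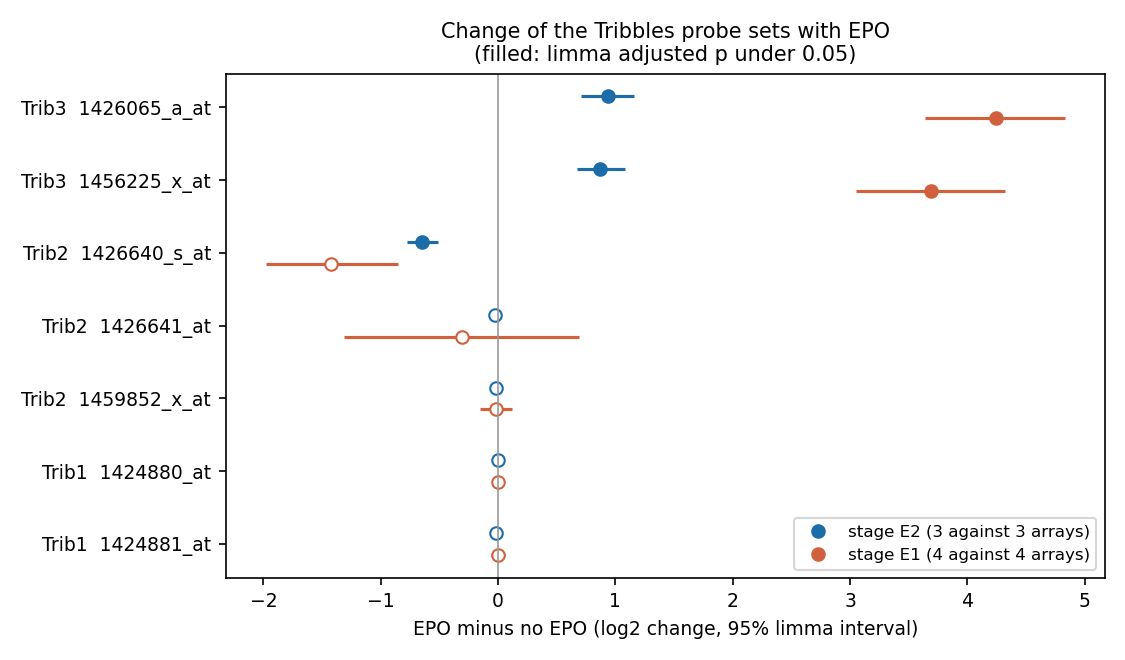
Change with EPO (EPO minus no EPO, log2, with limma 95% intervals) of the 7 Tribbles probe sets in stage E2 (3 against 3 arrays) and stage E1 (4 against 4). Filled points passed at an adjusted p under 0.05: both Trib3 probe sets in each stage and Trib2 1426640_s_at in stage E2. These fits are unpaired. With the replicate block neither Trib3 probe set passed in either stage.

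Over the 4 groups Trib3 and Trib2 ran in opposite orders. Both Trib3 probe sets were highest in EPO-challenged E2 cells, then unchallenged E2, EPO-challenged E1 and unchallenged E1 cells, and no array overlapped with those of a neighboring group. Of all probe sets, 0.158% had this order without overlap. Trib2 1426640_s_at had exactly the reverse order without overlap, as did 0.115% of all probe sets. The Pearson correlation of Trib3 1426065_a_at with this Trib2 probe set was -0.961 over the 14 arrays, which fall into 4 groups, and -0.17 for their deviations from the group means. The opposite course thus lay between the groups and hardly within them. The Trib3 probe sets correlated at r = 0.997 with each other.

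Both genes differed strongly between the stages. Without EPO, Trib3 was 7.03 ± 0.22 higher in stage E2 than in stage E1 on 1426065_a_at (130-fold, limma adjusted p = 6.99e-09), the highest stage change of all 45037 probe sets, and 5.68 ± 0.23 higher on 1456225_x_at (51.4-fold). Without overlap, 13.1% of all probe sets were higher in stage E2 without EPO and 12.4% under EPO. Under EPO the E2 excess was 3.72 ± 0.22 (13.2-fold, limma adjusted p = 5.28e-07) and 2.87 ± 0.23 (7.31-fold). Higher in stage E2 were 10.1% of all probe sets without EPO and 10.3% under EPO, so passing this test was itself common. After quantile normalization the excess on 1426065_a_at was 4.80 without EPO and 3.37 under EPO.

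Trib2 1426640_s_at changed by -3.96 ± 0.20 in stage E2 against E1 without EPO (15.6-fold lower, limma adjusted p = 2.47e-07) and by -3.19 ± 0.20 under EPO (9.14-fold lower, limma adjusted p = 9.03e-07). Lower in stage E2 were 10.8% of all probe sets without EPO and 12% under EPO. All 3 E2 arrays of either treatment lay below all 4 E1 arrays on the other Trib2 probe sets as well, an ordering that, as for Trib2 1426640_s_at, 38% of all probe sets had without EPO and 47.1% under EPO, and neither passed. Trib1 1424881_at differed by -0.075 ± 0.024 in stage E2 against E1 under EPO with a limma adjusted p of 0.0472, which rose above 0.05 with the replicate block (0.0567), after quantile normalization (0.0609) and on leaving out any of 10 of the 14 arrays in turn. Trib1 1424880_at did not pass in either stage comparison.

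Marker genes moved with the stages beside Trib3 and Trib2. Their levels cannot be read from centred values, so the labelled cell types could be checked only by differences between the stages. Of 8 myeloid markers measured, 6 were lower in stage E2 in both stage comparisons, among them the neutrophil granule gene Mpo (-9.47 ± 0.16 without EPO) and S100a8 (-9.49 ± 0.11). The mean over the 8 myeloid markers lay between -0.15 and -0.12 in E2 arrays with EPO and -0.12 and -0.08 in E2 arrays without EPO, against 4.74 to 5.17 in E1 arrays with EPO and 5.08 to 5.62 in E1 arrays without EPO. Of 8 erythroid markers, 7 were higher in stage E2 without EPO and 6 under EPO, including Slc4a1, the band 3 anion exchanger (6.61 ± 0.33 without EPO). Kit, the receptor used for the selection, was lower in stage E2 (-3.98 ± 0.18 without EPO). All 3 megakaryocyte markers were higher in stage E2, and of 4 lymphoid markers only Ptprc, carried by most white cells, differed (-3.97 ± 0.23 without EPO). The part of these markers' cells in the Trib2 and Trib3 stage differences was not tested, and in bulk RNA fewer cells of a type cannot be told apart from less RNA per cell. With EPO, none of the myeloid, erythroid, lymphoid or megakaryocyte markers passed in either stage, and the early progenitor gene Gata2 passed in stage E2 alone.

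**Figure D3:**
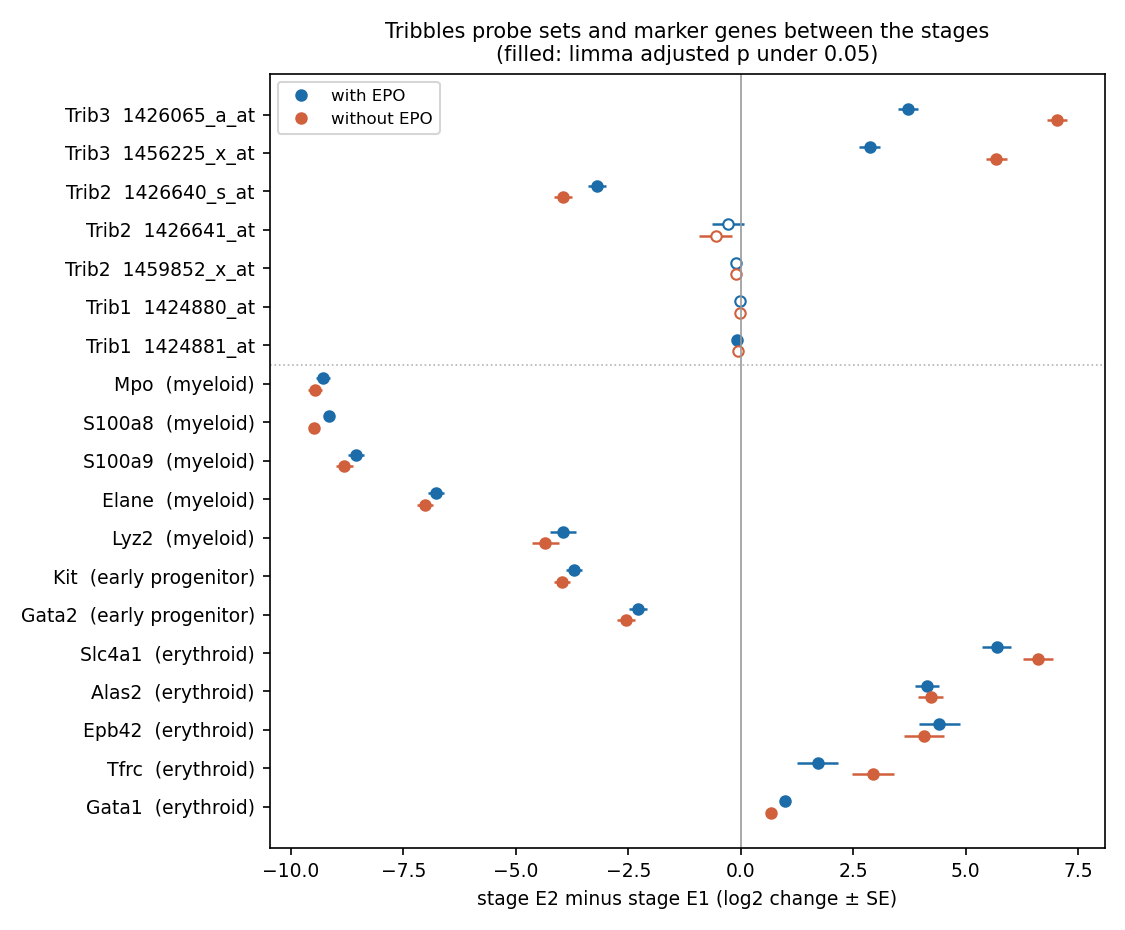
Stage E2 minus stage E1 (log2 change ± SE) with EPO and without EPO for the 7 Tribbles probe sets, above the dotted line, and for 12 marker genes below it; filled points passed at a limma adjusted p under 0.05. The 12 were picked from markers that passed in both comparisons. Among those shown, Trib3 lies to the right with the erythroid markers and Trib2 1426640_s_at to the left with the myeloid and early progenitor markers. Not shown are markers that did not pass, such as Hba-a1 (-0.01 with and without EPO) and Ltf. The 3 megakaryocyte markers, higher in stage E2 like Trib3, are not shown either.

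Genes of the ATF4 and CHOP pathway, which switches Trib3 on, were then counted, each gene by its most variable probe set. Of 23 genes listed, 22 were measured. With EPO, 6 were higher and none was lower in stage E2, and 5 were higher and none was lower in stage E1, with median changes of 0.25 in stage E2 and 0.33 in stage E1, against -0.0049 and -0.0047 over all probe sets in those stages. Of all probe sets, 2.54% were called higher in stage E2 and 0.804% in stage E1. Those shares cover all probe sets and not only each gene's most variable one, so they are not like for like. With the replicate block no gene of the list passed in stage E1, where 61 probe sets passed in all. In the joint fit 2 were higher and 1 was lower in stage E2. After quantile normalization 5 were higher in stage E2 and 3 in stage E1, and leaving out 1 array at a time gave 3 to 4 in stage E2 and 2 to 5 in stage E1. By the methods' t-test without adjustment 11 were higher and 2 lower in stage E2, and 10 were higher and 1 lower in stage E1. With a gene's probe sets averaged, 5 were higher and 2 lower in stage E2, and 6 were higher and none lower in stage E1.

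Among the 22 measured genes of this list, Nupr1, Chac1 and Sesn2 had the largest rises in stage E1. The list was drawn up as genes of the ATF4 and CHOP pathway, so their membership is not a result. Nupr1, a small stress-induced chromatin protein, read 0.76 to 0.82 with EPO and -0.20 to 0.04 without EPO in stage E2, and -1.22 to -0.07 with EPO and -4.81 to -4.24 without EPO in stage E1. It rose by 0.85 ± 0.07 in stage E2 (limma adjusted p = 0.00803) and by 3.90 ± 0.27 in stage E1 (limma adjusted p = 0.00275). Chac1, an enzyme that degrades glutathione, rose by 0.83 ± 0.06 in stage E2 (limma adjusted p = 0.00709) and by 3.49 ± 0.29 in stage E1 (limma adjusted p = 0.00439). By duplicate RT-PCR on E1 cells with EPO receptors keeping or lacking a STAT5 site, the study gave evidence for Chac1 as a STAT5 target. The cause of its rise was not tested here. Sesn2, a stress-induced inhibitor of the mTORC1 kinase complex, rose by 0.50 ± 0.09 in stage E2 (limma adjusted p = 0.0494) and by 2.25 ± 0.29 in stage E1 (limma adjusted p = 0.0224). Of the 2 Sesn2 probe sets, 1 passed in each stage. Nupr1 and Chac1, like Trib3, rose less in stage E2 than in stage E1, by an interaction of -3.06 ± 0.33 (limma adjusted p = 0.00298) for Nupr1 and -2.66 ± 0.36 (limma adjusted p = 0.0119) for Chac1. In stage E1, 17 of the 22 listed genes did not pass, among them Asns (-0.16 ± 0.15) and Slc7a11 (-0.02 ± 0.05).

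The transcription factors of the list behaved unlike each other. Cebpg, which encodes C/EBPγ, a dimer partner of ATF4, rose by 0.32 ± 0.05 in stage E2 and by 1.23 ± 0.15 in stage E1. Atf3, a factor induced downstream of ATF4, rose by 2.16 ± 0.14 in stage E2 (limma adjusted p = 0.0044) and changed by 0.46 ± 0.14 in stage E1 (limma adjusted p = 0.316), with an interaction of 1.70 ± 0.21 (limma adjusted p = 0.0073), opposite in sign to that of Trib3. Ddit3, the gene of CHOP, rose by 0.21 ± 0.02 in stage E2 (limma adjusted p = 0.0181) and read -0.10 ± 0.16 in stage E1 (limma adjusted p = 1). Only 1 of the 2 Ddit3 probe sets passed in stage E2. Atf4 itself, named here after its values were seen, changed by 0.65 ± 0.23 in stage E2 (limma adjusted p = 0.267) and by 1.21 ± 0.24 in stage E1 (limma adjusted p = 0.0964), and 1 of its 3 probe sets passed in each stage. Herpud1, a membrane protein of endoplasmic reticulum quality control, also named after its values were seen, rose by 1.54 ± 0.20 in stage E1 and changed by 0.43 ± 0.09 in stage E2 (limma adjusted p = 0.0843). Of the 2 Herpud1 probe sets, 1 passed in each stage, in stage E2 the one not shown here.

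**Figure D4:**
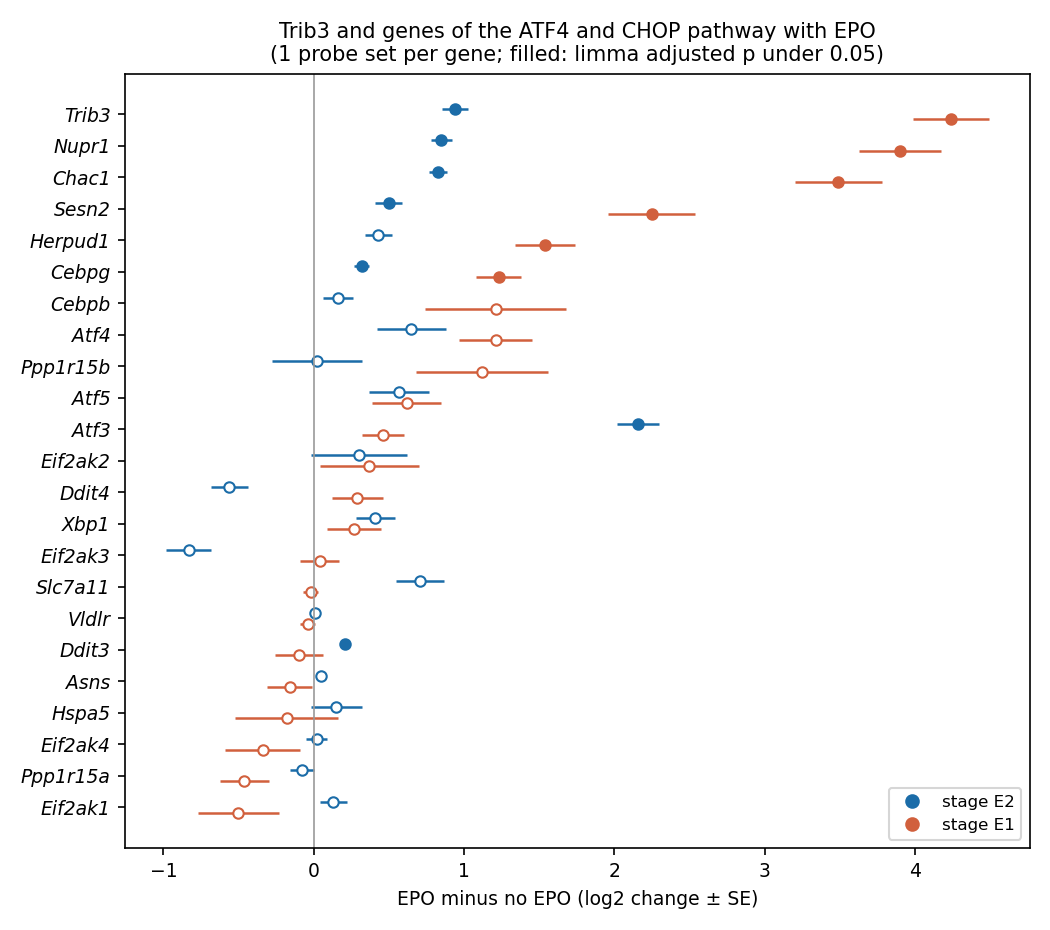
Change with EPO (EPO minus no EPO, log2 ± SE) of Trib3 1426065_a_at, top, and of the 22 measured genes of the ATF4 and CHOP pathway, 1 probe set each, in stage E2 and stage E1; filled points passed at a limma adjusted p under 0.05. Nupr1, Chac1 and Sesn2 follow Trib3 with larger changes in stage E1, and Atf3 has its larger change, 2.16, in stage E2.

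Between the stages the list was shifted with Trib3: 16 of 22 genes were higher and 2 lower in stage E2 without EPO, and likewise under EPO, with medians of 1.54 and 1.27 against -0.027 over all probe sets in each. Of all probe sets, 10.1% were higher and 10.8% lower in stage E2 without EPO, and 10.3% higher and 12% lower under EPO. With a gene's probe sets averaged, 17 were higher and 2 lower without EPO, and 16 were higher and 3 lower under EPO. Chac1 was 4.38 ± 0.25 higher in stage E2 without EPO, Sesn2 4.31 ± 0.26 and Nupr1 4.42 ± 0.23. Of the 22 genes, Chac1, Sesn2, Atf3 and Cebpg had the same order of the 4 groups without overlap as Trib3, as did 0.158% of all probe sets.

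Transcripts of the proteins through which Tribbles act were counted in the same way, 1 probe set per gene, and their shares are read against the 2.54% higher and 2.08% lower of all probe sets in stage E2 and the 0.804% higher and 0.36% lower in stage E1. Of 11 measured genes of the COP1 ligase and the C/EBP factors, 1 was higher and 1 lower in stage E2 and 1 was higher in stage E1. Cul4b, a scaffold of the ligase, fell by 0.44 in stage E2 (SE 0.04, limma adjusted p = 0.0112) and read -0.07 ± 0.18 in stage E1 on its most variable probe set. Its other probe set, the one most like Trib2, fell by 0.49 in stage E1 (limma adjusted p = 0.0168) and read -0.10 in stage E2 (limma adjusted p = 0.522), so a different probe set passed in each stage. Cebpg rose in both stages as given above. Cebpg did not pass after quantile normalization in either stage, and in stage E1 its adjusted p with the replicate block was 0.128. Cop1 itself read -0.01 ± 0.09 in stage E2 and -0.32 ± 0.15 in stage E1 and did not pass. Cebpa, the gene of the main C/EBP target of Trib1 and Trib2, read 0.00 ± 0.02 in stage E2 and -0.17 ± 0.22 in stage E1. Cebpb, which encodes a second C/EBP factor, was 3.17 ± 0.41 higher in stage E2 than in E1 under EPO and 4.22 ± 0.41 higher without EPO.

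Of 14 measured genes around AKT and FOXO, the insulin receptor substrate Irs2, which couples receptors to AKT, rose by 0.82 ± 0.10 in stage E2 (limma adjusted p = 0.0211) and by 3.50 ± 0.34 in stage E1 (limma adjusted p = 0.00802). Its interaction of -2.68 ± 0.42 (limma adjusted p = 0.0234) had the sign of that of Trib3. With the replicate block the limma adjusted p of Irs2 was 0.109 for the interaction and 0.122 in stage E1. For the 2 Trib3 probe sets the block gave 0.0219 and 0.0493 for the interaction, and 0.066 and 0.0823 in stage E1. Foxo3, a transcription factor that AKT inactivates, fell by 0.56 in stage E2 (SE 0.03, limma adjusted p = 0.00275) and read -0.47 ± 0.42 in stage E1. Only 1 of the 3 Foxo3 probe sets passed in stage E2. Akt1 read 0.58 ± 0.11 in stage E2 (limma adjusted p = 0.0714) and 0.11 ± 0.15 in stage E1. None of the 5 measured MAP kinase and MAP kinase kinase genes passed limma's test with EPO in either stage on its most variable probe set, and 1 of the 5 probe sets of Mapk8, a stress-activated kinase, passed in stage E2. Without adjustment the methods' t-test had 1 of them lower in each stage, and with probe sets averaged per gene 1 was higher in stage E2 and 1 lower in stage E1.

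Of 13 measured regulators that have been tied to Trib1 or Trib2 in blood cells, none passed limma's test with EPO in stage E1 (3 were lower by the methods' t-test without adjustment) and 3 passed in stage E2. Tal1, a transcription factor of early blood and erythroid cells, rose by 0.91 ± 0.10 (limma adjusted p = 0.0166) and Gata2 by 0.58 ± 0.09 (limma adjusted p = 0.039). Siah1a, a ubiquitin ligase, fell by 0.20 (SE 0.03, limma adjusted p = 0.0387) and did not pass after quantile normalization or median centring. Only 1 of the 2 Gata2 probe sets and 1 of the 3 Siah1a probe sets passed in stage E2. Between the stages, Gata2 shared the direction of Trib2, lower in stage E2 (-2.28 ± 0.20 under EPO and -2.55 ± 0.20 without EPO).

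The genes whose pattern over the 14 arrays was most like that of Trib3 1426065_a_at were Sesn2 (r = 0.984), the cell cycle inhibitor Cdkn1a (r = 0.982), Cebpg (r = 0.979), Chac1 (r = 0.974) and the kinesin Kif2a (r = 0.973). For their deviations from the group means the same correlations with Trib3 were between -0.38 and 0.76, so the likeness lay mostly between the groups. Most like Trib2 1426640_s_at were Cul4b on another of its probe sets (r = 0.988), 2700097O09Rik (r = 0.987), Glcci1 (r = 0.985), Hsd17b11 (r = 0.984) and Ccdc68 (r = 0.983). Most like Trib1 1424881_at were Tnfrsf17, Dennd1c, A530020G20Rik, Tmem47 and Rufy2 (r between 0.977 and 0.983), all with SDs of 0.0769 or less. For deviations from the group means their correlations with Trib1 were 0.95 to 0.97, so this likeness of nearly constant probe sets was present within the groups too. All these likenesses are descriptions over 14 arrays that share 4 groups.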

How the data were processed

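Total RNA of 14 cultures was hybridised to Affymetrix whole-genome mouse arrays. The authors processed scans with GCOS and, in GeneSpring GX, with GC-RMA, and deposited log2 values for all arrays together. Base 2 is taken from GC-RMA's usual output. In 78% of probe sets a pair of arrays held values of equal size and opposite sign (to 2e-06), the mark of a subtracted median, so no dim-probe filter or background correction could be set. Array number limits precision.

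Each stage was fitted alone with limma (version 3.58.1, under R 4.3.3), and interaction and stage comparisons on all 14 arrays, over 45037 probe sets; 64 controls were left out. Gene names came from the platform annotation (34945 probe sets with 1 gene, 932 with several, 9160 with none). Same-numbered E1 arrays deviated together (r = 0.195, 0.187, 0.173 and 0.152), so the label numbers were taken as pairing there, although unchallenged replicate 4 correlated more with EPO-challenged replicate 3 (r = 0.203) than with its own number, and not in E2 (r = -0.0609, -0.0567 and -0.0155). The reported fits are nevertheless unpaired in both stages, and pairing enters only through the replicate block among the alternatives. No source states a shared batch. P-values measure the spread between these cultures.

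The members, gene lists and tests were chosen with earlier results of these data known. The rule named every Tribbles probe set, up to 6 genes per list that passed in any comparison, by smallest adjusted p with EPO, the 5 genes most like each Tribbles gene, and Cish, Socs2 and Pim1. Cop1, Cebpa, Asns, Slc7a11, Atf4 and Herpud1 were named outside this rule. Of these, Cop1, Cebpa and Asns passed in no comparison on the probe set used. Genes with no probe set of their own, such as Cebpe and Eif2s1, and the Trib1 promoter and Tribbles proteins were not analysed here. Alternatives were quantile normalization over the arrays of each fit, median centring, a variance trend with robust fitting, weights for arrays, the 22518 more variable probe sets, the replicate block, the joint fit, the methods' one-tailed t-test, a gene's mean over probe sets, and each array left out. The fits were tested on simulated data. Figures used Python 3.11.15 and matplotlib 3.10.9.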

Additional observations from a re-analysis of the deposited data

Results flagged for a closer look

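The EPO response of Trib3 differed between the stages by the test of the difference itself: EPO change in stage E2 minus that in stage E1 of -3.30 on 1426065_a_at (limma adjusted p = 0.00111) and -2.81 on 1456225_x_at (limma adjusted p = 0.00476), with a rise in both stages. Single arrays stood far from the rest of their group in 2 of 14 groups of 4 arrays examined. Chance flags about 1 in 20, but these 14 are 7 probe sets in the same E1 arrays and are not independent. The first was EPO-challenged E1 replicate 3 on Trib2 1426641_at, at 0.88 against values between -0.03 and -0.004 in the other 3. The second was EPO-challenged E1 replicate 1 on Trib2 1459852_x_at, at 0.13 against values between -0.007 and 0.002. Unchallenged E1 replicate 1 was also the highest of its group there, at 0.19. These replicate 1 arrays had the highest medians over all probe sets in their groups (0.017 with EPO, 0.031 without).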

How the results depend on the processing

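Trib3 kept its direction in every comparison under every alternative run, with 3.40 to 4.24 for the EPO change in stage E1, 0.86 to 0.94 in stage E2, and 4.01 to 7.05 for E2 against E1 without EPO. Its stage E2 calls were lost in the joint fit and with the replicate block (adjusted p 0.0684 and 0.0954 for the 2 probe sets), though no pairing was found in stage E2; on leaving out 1 array the E2 change was 0.81 to 0.98 and the E1 change 3.44 to 4.39. The Trib2 1426640_s_at interaction reversed to -0.27 with quantile normalization. Another 42 values changed sign without passing an unadjusted p of 0.05 under either setting (26 of Trib1, 16 of Trib2, none of Trib3, from -0.13 to 0.16). Of the Tribbles calls the replicate block ended, besides these, the 2 of Trib3 in stage E1 and that of Trib1 1424881_at between the stages under EPO (0.0567), and changed no other. The causes were not tested.

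Counts of probe sets over the whole array moved more. With EPO in stage E2, 1146 were higher and 935 lower. These became 1877 and 1697 among the 22518 more variable probe sets, 264 and 153 with the replicate block, 611 and 388 in the joint fit, 4100 and 5639 by the methods' t-test without adjustment (1003 and 812 after Benjamini-Hochberg), and 504 to 843 and 330 to 546 on leaving out 1 array. In stage E1, 362 were higher and 162 lower. These became 1128 and 762 with array weights, 44 and 17 with the replicate block, 1063 and 632 in the joint fit, 2824 and 2370 by the unadjusted t-test (324 and 146 after Benjamini-Hochberg), 599 higher among the more variable ones, and 150 to 365 and 55 to 156 on leaving out 1 array. The interaction had 81 higher and 106 lower, which became 949 and 769 after quantile normalization, 388 and 481 with array weights, 28 and 39 with the replicate block, 47 higher with the trend and robust options, 162 lower among the more variable ones, and 39 to 114 and 51 to 217 on leaving out 1 array. Lower in stage E2 with array weights were 7962 probe sets without EPO (4872 in the reported fit) and 12964 under EPO (5405), and 3996 to 9682 under EPO on leaving out 1 array.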
